A study of Mus musculus with 26 samples.

Results

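A set of 10 genes of cell division was followed in endothelial cells sorted from mouse tumours and kidneys that were or were not exposed to interferon gamma (IFNγ). They are Cdk1, Top2a, Birc5, Aurkb, Nuf2, Cenpf, Nek2, Aspm, Hmmr and Kif14. Each was read through every probe set that the array annotation assigns to 1 of these symbols alone, 187 of 53857 such probe sets, out of 5109 genes. A probe set is a group of array probes summarised as 1 value, and 1 gene has 8 to 32 of them here, spread along its transcripts. The rule goes by the annotated symbol and uses no measured value, but the members were chosen with earlier results of these data known.

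Expression was measured on 26 microarrays in 9 groups of CD31+/CD146+ cells, all from female mice. MCA313-IFNγ-IND tumours grew in PIG-Pdgfb-Cre-IFNγ-del mice aged 4 to 6 months, in which the IFNγ receptor is restricted to endothelium by a Pdgfb-driven Cre, and the tumour cells were left uninduced at 0 h (3 arrays) or were made to secrete it, with 2 arrays at 24 h and 2 at 48 h. J558L-IFNγ-GFP-IND tumours grew in Rag-/- mice aged 4 to 6 months, which have the receptor on all cells and no mature T or B cells, and endothelium was sorted from tumours that released IFNγ-GFP for 24 h (3 arrays) or did not (0 h, 2 arrays), and from kidneys of mice with such tumours at 24 h (3 arrays) or 0 h (3 arrays). 16.113 tumours grew in Rag-/- mice aged 3 to 4 months, and all of these mice received tumour-specific T cells 120 h before sampling, either IFNγ-competent (3 arrays) or IFNγ-deficient (5 arrays). Whether each replicate came from its own animal is not stated, so p-values measure the spread between arrays, which may be partly technical.

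Dividing cells make these transcripts late in the cell cycle, and resting cells keep them low. Cdk1 is the kinase that drives entry into mitosis, and Top2a, topoisomerase II alpha, untangles sister DNA before the chromosomes part. Birc5 (survivin) and Aurkb (Aurora B kinase) belong to the chromosomal passenger complex, Nuf2 and Cenpf work at the kinetochore, Nek2 is a centrosome kinase, Aspm and Hmmr act at the spindle and its poles, and Kif14 is a kinesin of cytokinesis. Endothelium of healthy adult organs divides rarely, whereas tumour vessels contain dividing endothelial cells.

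In the RefSeq annotation of GRCm38.p6, Cdk1 lies at chr10:69335146-69352912. Top2a (chr11:98992947-99024199), Birc5 (chr11:117849237-117855743), Aurkb (chr11:69045624-69051664) and Hmmr (chr11:40701388-40733464) lie on chromosome 11. Nuf2 (chr1:169497934-169531464), Cenpf (chr1:189640606-189688107), Nek2 (chr1:191821449-191833049), Aspm (chr1:139454188-139494088) and Kif14 (chr1:136466301-136555938) lie on chromosome 1. Genes of this kind are known for promoters that carry a cell cycle homology region, with the letters TTTGAA, and CCAAT boxes. Both were searched on both strands in windows of 300 bases, from 250 bases before to 50 bases after the start that the RefSeq promoter table gives for the gene.

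A window was held for 9 of the 10 genes, all but Aurkb. TTTGAA stood in 6 of these 9 windows (66.7%), against 17.9% of 32851 windows of all genes. CCAAT stood in 7 of 9 (77.8%), against 37.4% of all windows, and both motifs together in 6 of 9 (66.7%), against 6.95%. In 23 windows of other mitosis genes, described further on, TTTGAA stood in 43.5%, CCAAT in 82.6% and both in 39.1%. The 120 bases before the start are shown for the 3 genes whose brightest probe sets differed most in 16.113 tumours (Top2a, Birc5 and Cdk1), in GRCm38.p6 and 5′ to 3′ on the strand of the gene. Capitals mark TTTGAA or its reverse complement TTCAAA, and CCAAT or its reverse complement ATTGG, and no matches overlap.
Cdk1, chr10:69352913-69353032, minus strand: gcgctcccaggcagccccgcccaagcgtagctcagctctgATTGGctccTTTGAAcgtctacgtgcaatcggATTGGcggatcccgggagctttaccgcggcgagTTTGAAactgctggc
Top2a, chr11:99024190-99024309, minus strand: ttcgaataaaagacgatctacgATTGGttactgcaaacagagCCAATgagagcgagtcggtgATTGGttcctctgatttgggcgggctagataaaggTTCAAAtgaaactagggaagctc
Birc5, chr11:117849117-117849236, plus strand: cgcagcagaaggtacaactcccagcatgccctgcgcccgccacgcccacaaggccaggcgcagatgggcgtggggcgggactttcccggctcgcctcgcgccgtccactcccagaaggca
The Cdk1 window held TTTGAA 2 times and CCAAT 3 times, the Top2a window 2 and 6 times, and the Birc5 window held neither. Such a match describes letters and does not show that a factor binds.

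Array medians of log2 expression were 5.78 to 5.88 for MCA313, 6.42 to 6.46 for J558L tumour, 6.33 to 6.40 for J558L kidney and 5.62 to 5.79 for 16.113 arrays. Exact values recurred between arrays within these 4 sets and almost never between them, so levels were compared only within a set. Pecam1, which encodes the CD31 of the sort, had group means of 13.51 to 13.95 in all 9 groups. The IFNγ-competent replicate 1 of 16.113 stood apart from its group for the mitosis genes, and the counts and calls of 16.113 are given with and without it. In such bulk samples fewer dividing cells and less RNA per cell cannot be told apart.

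In tumour endothelium most probe sets of the 10 genes had a lower mean where IFNγ was present, and in kidney endothelium most lay low with or without it. Each array's own median of all probe sets gives a simple yardstick. In MCA313 endothelium 56.7%, 50.8% and 55.1% of the 187 probe sets lay above it at 0 h, 34.2% and 32.6% at 24 h, and 26.2% and 39% at 48 h. In J558L tumour endothelium the shares were 36.9%, 38% and 34.8% at 24 h, against 62% and 52.4% at 0 h. In both tumours every exposed array lay below every unexposed one.

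In kidney endothelium the shares were 17.6%, 20.9% and 19.8% at 24 h, against 21.9%, 20.3% and 21.9% at 0 h, so the 2 groups overlapped. In 16.113 endothelium they were 50.8%, 33.2% and 34.2% with IFNγ-competent T cells, against 54.5%, 57.2%, 58.8%, 59.9% and 52.4% with IFNγ-deficient T cells. The IFNγ-competent replicate 1 lay close to the deficient arrays here, although the groups did not overlap. Its Irgm1 level, an interferon-inducible GTPase chosen after values were seen, was 11.48, against 10.97 and 11.05 in the other competent arrays and 8.67 to 9.26 in the deficient arrays.

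**Figure D1:**
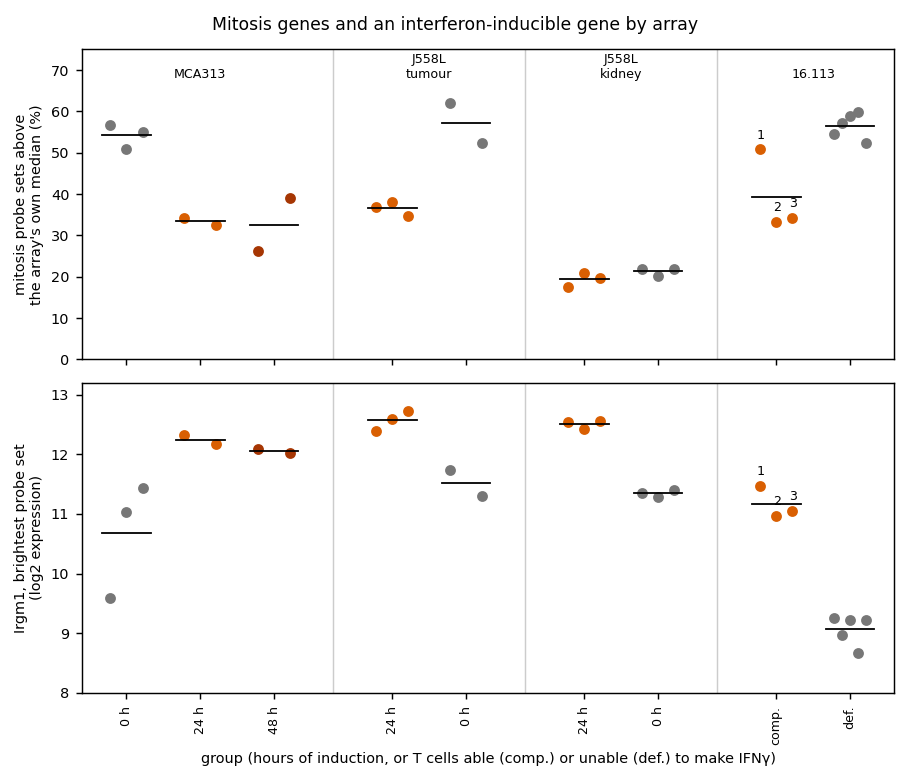
The upper panel plots, for each of the 26 arrays, the percentage of the 187 mitosis probe sets above the array's own median of all probe sets, and the lower panel plots the log2 expression of Irgm1 (points are arrays, bars group means, numbers the replicates of IFNγ-competent T cells). Tumour arrays exposed to IFNγ lie at 26.2% to 39%, apart from the IFNγ-competent replicate 1 at 50.8%, and kidney arrays at 17.6% to 21.9%.

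**Figure D2:**
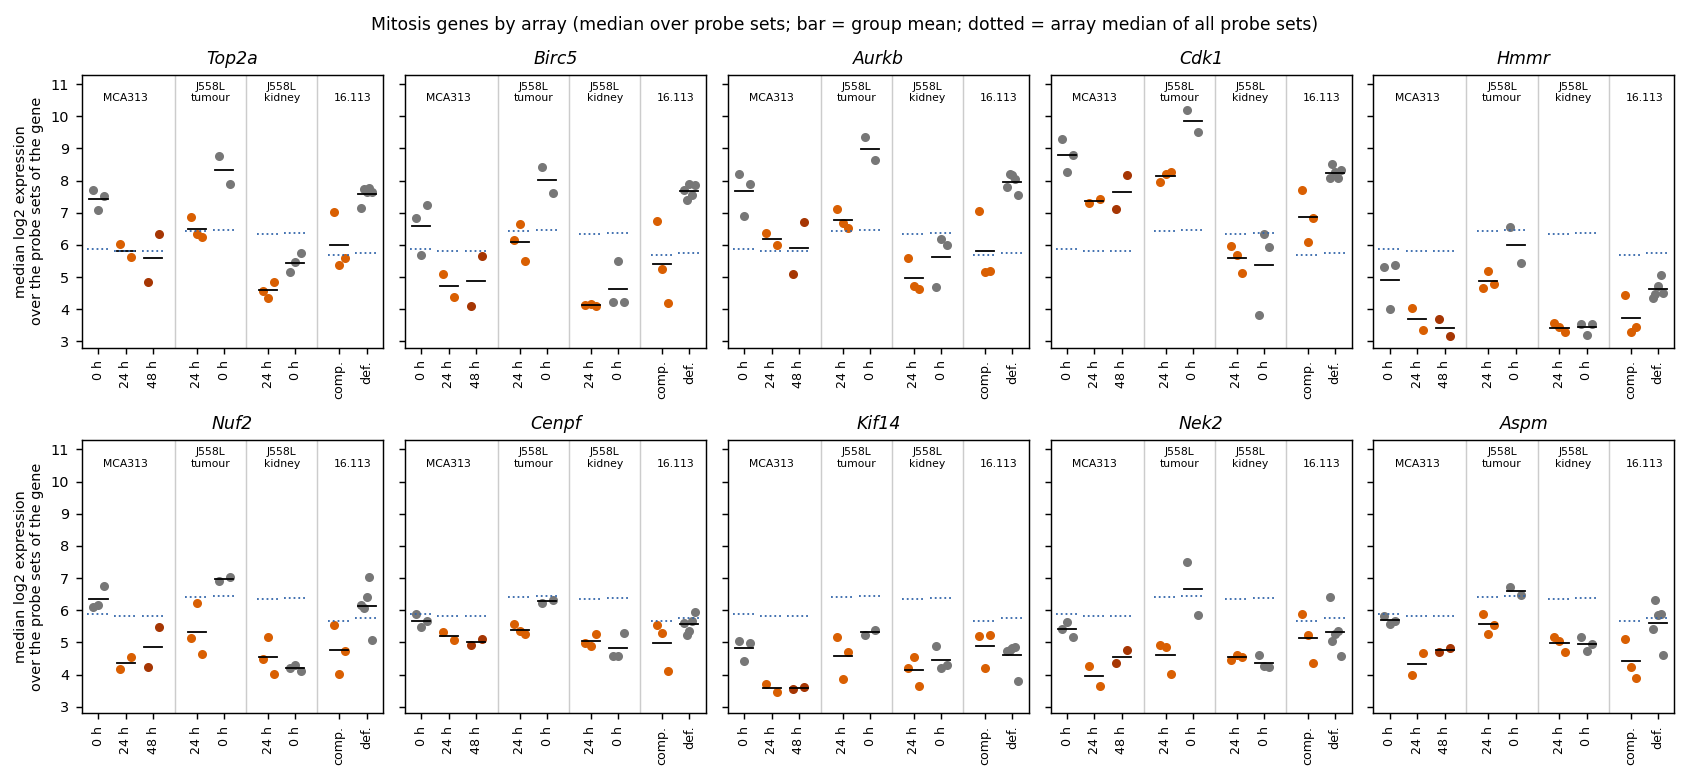
For each gene the points are the arrays' median log2 expression over all probe sets of the gene, bars are group means and dotted lines the mean array median of the group, with vertical lines between the separately normalized sets (comp. and def. are IFNγ-competent and IFNγ-deficient T cells). Levels can be compared only between groups of 1 gene inside 1 set, and in the kidney all group means lie under the dotted lines.

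In MCA313 tumours, where only endothelial cells carry the receptor, the genes were compared at 24 h and 48 h with 0 h. Of the 187 probe sets 156 had a lower mean at 24 h than at 0 h, with a median difference of -1.06 on the log2 scale, against 54.6% lower and a median of -0.06 over all 53857 probe sets. Both arrays at 24 h lay below all 3 at 0 h for 97 of the 187 (51.9%), against 16.2% of all probe sets. At 48 h 156 were lower, with a median of -1.02 against -0.05 over all probe sets, and 89 (47.6%) lay below every 0 h array, against a background of 16.4%.

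Genes were tested in limma in a pair of ways, by the brightest probe set of each gene and by the average of all its probe sets, with Benjamini-Hochberg adjusted p-values over 4386 genes and a threshold of 0.05. At 24 h Hmmr alone of the 10 genes passed by the brightest probe set, where 0.684% of all genes tested did. Hmmr had 8.02, 7.64 and 7.88 at 0 h, 6.15 and 5.25 at 24 h, and 7.07 and 6.66 at 48 h. Both later groups lay below every 0 h array, and 24 h lay below 48 h. Its log2 change at 24 h was -2.15 ± 0.48 (SE), 4.43-fold lower, with an adjusted p of 0.042 in limma, and its size is uncertain because the mean at 24 h, 5.70, lay under the array medians.

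At 48 h Nek2 alone passed by the brightest probe set, against 1.37% of all genes tested. Nek2 had 9.63, 10.11 and 9.85 at 0 h, 9.84 and 9.75 at 24 h, and 8.35 and 9.36 at 48 h. Its 24 h arrays lay among those of 0 h, and both 48 h arrays lay below them. The log2 change at 48 h was -1.01 ± 0.25 (SE, adjusted p = 0.047 in limma). The other probe sets of Nek2 shared this fall only in part. Of all 14, 7 were lower and 7 higher at 48 h, with a median difference of -0.05 and a range of -1.84 to 1.25. Below every 0 h array lay 4 (28.6%), against 16.4% of all probe sets, and 1 lay above, against 11.5%. The average of all 14 gave -0.29 ± 0.25 (SE, adjusted p = 0.664 in limma). The Hmmr call was lost without replicate 1 or 3 at 0 h or either replicate at 24 h (adjusted p 0.059 to 0.506 in limma), and the Nek2 call without any replicate at 0 h or replicate 1 at 48 h (0.088 to 0.714).

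By the average of all probe sets all 10 genes were lower at both times. At 24 h 4 passed, against 2.8% of all genes tested: Nuf2 (-1.91 ± 0.42), Top2a (-1.62 ± 0.41), Aspm (-1.11 ± 0.29) and Hmmr (-1.03 ± 0.25, log2 change ± SE). Cdk1 (-1.28 ± 0.38), Birc5 (-1.43 ± 0.43) and Cenpf (-0.68 ± 0.20) had adjusted p of 0.069 to 0.072 in limma. At 48 h 3 passed, against 3.1% of all genes tested: Top2a (-1.51 ± 0.41), Hmmr (-1.11 ± 0.25) and Kif14 (-0.91 ± 0.19). Without 1 array the count ranged from 0 to 4 at 24 h and from 0 to 6 at 48 h, and Nuf2 at 24 h passed without any 1 array at 0 h but not without either array at 24 h.

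The genes of mitotic entry and chromosome separation gave these levels by the brightest probe set. Cdk1 had 11.05, 10.57 and 10.77 at 0 h, 9.63 and 9.35 at 24 h, and 9.39 and 10.23 at 48 h. Top2a had 11.71, 10.49 and 11.77 at 0 h, 9.82 and 10.33 at 24 h, and 9.67 and 10.13 at 48 h. For both genes every induced array lay below every 0 h array, and the 24 h and 48 h arrays overlapped.

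Of the chromosomal passenger genes, Birc5 had 9.57, 8.40 and 9.21 at 0 h, 7.54 and 7.39 at 24 h, and 4.69 and 7.58 at 48 h by its brightest probe set. The groups did not overlap with 0 h, and 48 h replicate 1 was the lowest array by far. The log2 change was -2.93 ± 0.78 (SE) at 48 h with an adjusted p of 0.063 in limma. The brightest probe set of Aurkb moved little (9.87 and 9.92 at 24 h, against 9.68, 9.55 and 9.97 at 0 h), whereas at 24 h a lower mean was found for 9 of the 12 probe sets, whose median was 8.22, 6.90 and 7.90 at 0 h, 6.38 and 5.98 at 24 h, and 5.10 and 6.73 at 48 h. By that median every induced array of Aurkb lay below every 0 h array.

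Of the kinetochore genes, Nuf2, a subunit of the Ndc80 complex that holds microtubules, had 7.83, 7.12 and 7.69 at 0 h, 5.15 and 6.65 at 24 h, and 4.81 and 7.18 at 48 h by the brightest probe set. The 24 h arrays lay below all of 0 h, and 48 h replicate 2 lay among them. A lower mean at 24 h was found for 15 of the 17 probe sets, with a median difference of -1.81. The brightest probe set of Cenpf averaged 8.13 ± 0.19 at 24 h and 7.81 ± 0.23 at 0 h (SD, n = 2 and 3), whereas the mean was lower for 16 of 22 probe sets at 24 h and for 19 at 48 h.

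Of the spindle and cytokinesis genes, Aspm also had a brightest probe set unlike the rest. The brightest of Aspm gave a log2 change of 0.51 ± 0.59 (SE) at 24 h, and 24 of its 27 probe sets were lower, with a median difference of -1.30. The brightest of Kif14 gave 0.06 ± 0.36 at 24 h and -1.08 ± 0.36 at 48 h, and the median over its 24 probe sets was 5.03, 4.43 and 4.97 at 0 h, 3.71 and 3.46 at 24 h, and 3.54 and 3.60 at 48 h. By that median Kif14 was lower in every induced array than in any 0 h array, at levels far under the array medians. Probe set by probe set, 15 of the 24 were lower at 24 h, with a median difference of -0.12. Only 3 (12.5%) lay below every 0 h array, against 16.2% of all probe sets. At 48 h 18 were lower, with a median difference of -0.87, and 7 (29.2%) lay below every 0 h array, against 16.4%.

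The 2 induced times were also set against each other. No member passed between 48 h and 24 h by either measure, against 0.0684% of all genes tested by the brightest probe set and 0.0228% by the average. By the brightest probe set Nek2 and Kif14 (lower) and Hmmr (higher) had an unadjusted p under 0.05 in limma. Of all 4386 genes tested 99 were lower and 67 higher by that mark. Of the 187 probe sets 84 were lower at 48 h than at 24 h, and both 48 h arrays lay below both 24 h arrays for 30 (16%), against 16.1% of all probe sets.

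**Figure D3:**
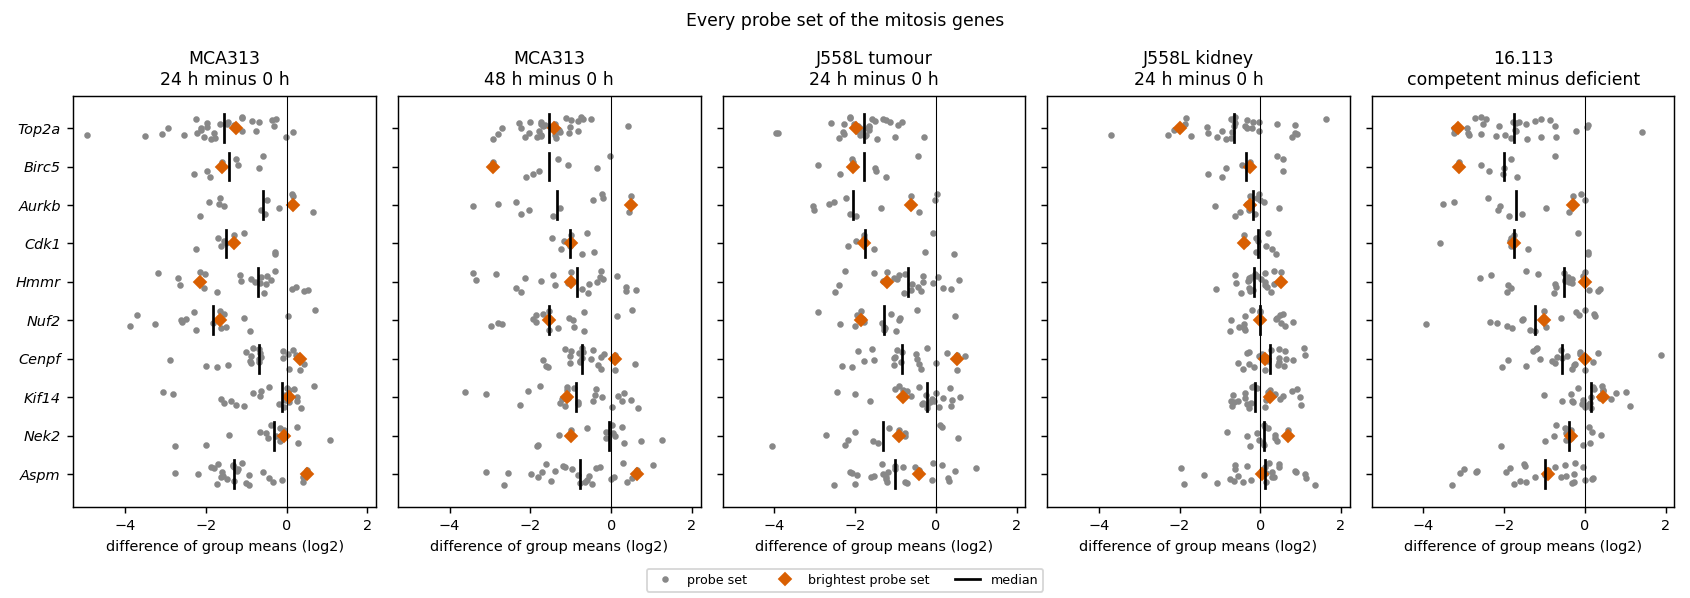
Each grey point is the difference of group means (log2) of 1 of the 187 probe sets, the orange diamond the brightest probe set of the gene and the black line the median over the probe sets of the gene, in 5 comparisons. Points lie mostly left of 0 in the tumours (156, 156, 160 and 149 of 187 lower) and on both sides of 0 in the kidney (105 of 187 lower), and the brightest probe sets of Aurkb, Cenpf and Aspm lie right of their gene's median in the MCA313 panels.

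In J558L tumours, where all host cells carry the receptor, 160 of the 187 probe sets were lower at 24 h than at 0 h, with a median difference of -1.19 against -0.03 over all probe sets, of which 52.9% were lower. All 3 arrays at 24 h lay below both at 0 h for 101 of the 187 (54%), against 14.6% of all probe sets. None of the 10 genes passed in limma by the brightest probe set, against 0.547% of all genes tested. An unadjusted p under 0.05 with a lower mean was found for 7, against 3.76% of all genes tested. By the average of all probe sets all 10 were lower and 5 passed, against 2.12% of all genes tested.

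Those 5 were Top2a (-1.84 ± 0.41), Birc5 (-1.76 ± 0.43), Aurkb (-1.66 ± 0.37), Nek2 (-1.36 ± 0.25) and Cenpf (-0.76 ± 0.20, log2 change ± SE). Cdk1 (-1.21 ± 0.38), Nuf2 (-1.39 ± 0.42), Aspm (-0.91 ± 0.29) and Hmmr (-0.78 ± 0.25) had adjusted p of 0.091 to 0.133 in limma. Kif14, at -0.42 ± 0.19, had the smallest difference. Without 1 array the count ranged from 0 to 5, with 0 past the test without replicate 1 at 0 h, 1 without replicate 3 at 24 h, 2 without replicate 2 at 24 h and 3 without replicate 1 at 24 h.

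Cdk1 had 10.22, 9.46 and 9.96 at 24 h, against 11.71 and 11.61 at 0 h, by its brightest probe set. Top2a had 10.88, 10.61 and 10.46 at 24 h, against 12.88 and 12.38 at 0 h. Birc5 had 8.58, 8.70 and 8.59 at 24 h, against 11.06 and 10.29 at 0 h. The groups of all 3 genes lay apart, by more than the spread inside either group.

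Aurkb had a median over its probe sets of 7.10, 6.67 and 6.53 at 24 h, against 9.35 and 8.64 at 0 h, and 11 of its 12 probe sets were lower. Its brightest probe set had 10.77, 9.47 and 9.62 at 24 h, against 10.78 and 10.34 at 0 h, and there replicate 1 at 24 h lay between the 0 h arrays. Nek2 had 9.02, 8.47 and 8.95 at 24 h, against 9.58 and 9.87 at 0 h, by the brightest probe set, with a log2 change of -0.92 ± 0.25 (SE) and an adjusted p of 0.113 in limma. The Nek2 groups did not overlap.

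Nuf2 had 5.38, 7.39 and 6.30 at 24 h, against 8.30 and 8.13 at 0 h, by the brightest probe set. Hmmr had 7.77, 7.38 and 7.62 at 24 h, against 9.45 and 8.15 at 0 h. Neither gene's groups overlapped, and Nuf2 varied by about as much inside the 24 h group as between the groups. The brightest probe set of Cenpf was higher at 24 h by 0.53 ± 0.30 (SE), whereas 17 of its 22 probe sets were lower.

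Single probe sets that passed among the 139 kept by the filter on low values were 1 of Top2a at 24 h in MCA313 (2.30 at 24 h against 7.24 at 0 h), against 0.16% of all 39400 probe sets tested. At 48 h in MCA313 they were 1 each of Top2a, Birc5, Nuf2 and Kif14, against 0.322%. In J558L tumours they were 1 of Top2a (8.06 at 24 h against 10.33 at 0 h) and 1 of Nuf2 (4.42 at 24 h against 7.32 at 0 h), against 0.142%. All of these were lower after IFNγ. The means of 2.30 for Top2a and 4.42 for Nuf2 lay far under the array medians, so their sizes are uncertain. The same holds at 48 h in MCA313 for Top2a (5.60), Nuf2 (3.78) and Kif14 (5.17), whose means also lay under them.

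In kidney endothelium of mice with J558L tumours 105 of the 187 probe sets were lower at 24 h than at 0 h, with a median difference of -0.09 against -0.03 over all probe sets, of which 52.5% were lower. All 3 arrays at 24 h lay below all 3 at 0 h for 17 probe sets (9.09%), close to the background of 9.73%. None of the 10 genes passed in limma by the brightest probe set, against 3.17% of all genes tested, or by the average of probe sets, against 5.93%. None of the 139 kept probe sets passed, against 1.32%. Top2a (lower) and Nek2 (higher) had an unadjusted p under 0.05 by the brightest probe set, and no member did by the average. Of all 4386 genes tested 312 were lower and 290 higher by that mark with the brightest probe set.

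Top2a had 8.11, 7.06 and 8.53 at 24 h, against 9.70, 9.48 and 10.49 at 0 h, by the brightest probe set, and the groups did not overlap. Its log2 change was -1.99 ± 0.60 (SE, adjusted p = 0.084 in limma), and the average of its 32 probe sets gave -0.68 ± 0.36 (adjusted p = 0.335). Nek2 had 9.04, 9.15 and 9.25 at 24 h, against 8.76, 8.20 and 8.40 at 0 h, by the brightest probe set, with a log2 change of 0.69 ± 0.22 (SE, adjusted p = 0.107 in limma). Nek2 was higher in every 24 h array, and the average of its 14 probe sets gave 0.06 ± 0.23.

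By the median over probe sets all 10 genes had kidney group means under the array medians, with and without IFNγ, whereas the brightest probe sets of Top2a, Aurkb, Cenpf, Nek2, Kif14 and Aspm had means above them in both groups. By the median over probe sets Cdk1 averaged 5.59 ± 0.42 at 24 h and 5.37 ± 1.36 at 0 h (SD, n = 3 each), and Birc5 averaged 4.13 ± 0.03 at 24 h and 4.64 ± 0.74 at 0 h. Hmmr averaged 3.43 ± 0.14 at 24 h and 3.44 ± 0.20 at 0 h. Whether such low levels hid a fall in the kidney was not tested.

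The question whether the tumour response differed from the kidney response was tested as a difference of the 2 changes. No member passed by either measure, against 0.0228% of all genes tested by the brightest probe set and 0.342% by the average. By the brightest probe set the difference was negative for 8 of the 10 genes. An unadjusted p under 0.05 in limma was found for 3 of these, against 2.17% of all genes tested. The difference was positive for Top2a (0.015 ± 0.90, SE) and Cenpf (0.42 ± 0.40). The Top2a change by that measure was -1.98 in the tumour and -1.99 in the kidney. By the average of probe sets the difference was negative for all 10 genes, from -1.48 ± 0.58 (SE) for Birc5 to -0.44 ± 0.26 for Kif14. Of these 8 had an unadjusted p under 0.05 in limma, and the share of all genes with such a p is not given here. Nek2 came nearest to the threshold (-1.42 ± 0.34, adjusted p = 0.076 in limma), followed by Cenpf (-1.01 ± 0.27, adjusted p = 0.152). A difference between tumour and kidney was therefore not shown by this test.

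**Figure D4:**
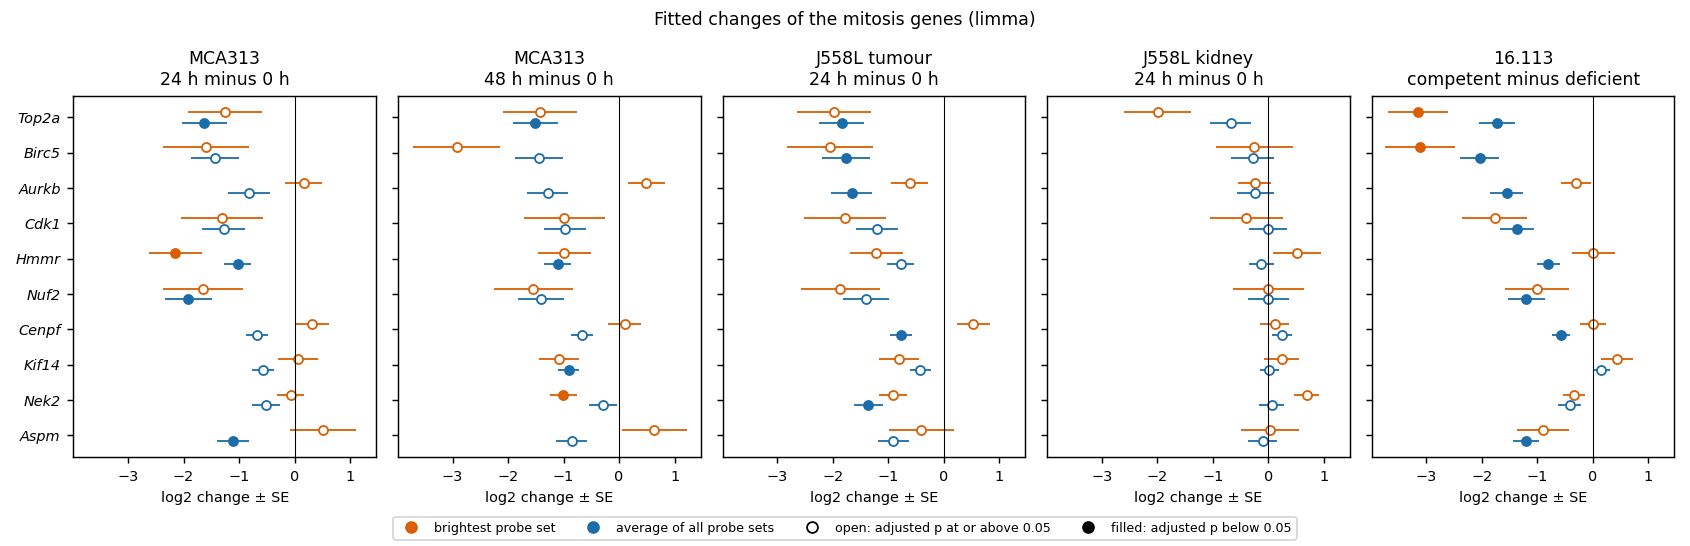
Points are fitted log2 changes with their standard errors from limma, in orange by the brightest probe set of a gene and in blue by the average of all its probe sets, filled where the adjusted p is below 0.05. By the average, 4, 3, 5, 0 and 8 of the 10 genes are filled from the left panel to the right one, and by the brightest probe set 1, 1, 0, 0 and 2.

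In 16.113 tumours the source of IFNγ was the transferred T cells, and IFNγ-competent T cells were compared with IFNγ-deficient ones after 120 h. Of the 187 probe sets 149 were lower with competent T cells, with a median difference of -0.75 against -0.03 over all probe sets, of which 52.9% were lower. All 3 competent arrays lay below all 5 deficient ones for 51 of the 187 (27.3%), against 3.98% of all probe sets. Without competent replicate 1, 154 were lower, with a median of -0.98 against -0.04 over all probe sets, and 87 (46.5%) lay below every deficient array, against 10.3% of all probe sets. Of the 139 kept probe sets 36 passed in limma, all lower, against 4.04% of the 39400 tested.

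By the brightest probe set Top2a and Birc5 fell, and the other 8 genes did not pass, against 7.36% of all genes tested. By this measure 7 of the 10 were lower. Hmmr (0.0053 ± 0.39), Cenpf (0.0004 ± 0.24) and Kif14 (0.44 ± 0.28, log2 change ± SE) were not. Nuf2 gave -1.01 ± 0.57, Aspm -0.90 ± 0.47, Nek2 -0.35 ± 0.20 and Aurkb -0.31 ± 0.27. Top2a had 10.94, 7.47 and 8.07 with competent T cells, against 11.52, 12.35, 12.41, 11.83 and 11.78 with deficient T cells. Birc5 had 8.50, 5.92 and 4.48 with competent T cells, against 8.88, 9.49, 9.57, 9.48 and 9.62 with deficient T cells. No competent array reached a deficient one for either gene, and competent replicate 1 lay nearest.

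The log2 change was -3.15 ± 0.54 (SE) for Top2a, 8.89-fold lower, with an adjusted p of 0.0013 in limma. For Birc5 it was -3.11 ± 0.62, 8.65-fold lower, with an adjusted p of 0.0043. Without competent replicate 1 these were -4.21 for Top2a (adjusted p = 3.74e-06 in limma) and -4.21 for Birc5 (adjusted p = 3.15e-05). A fit of the 8 arrays of 16.113 alone ended both calls (adjusted p = 0.072 for Top2a and 0.091 for Birc5 in limma), and array weights ended that of Birc5 (adjusted p = 0.057).

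Cdk1 had 9.71, 8.29 and 7.68 with competent T cells, against 9.88, 10.32, 10.37, 10.68 and 10.39 with deficient T cells, by the brightest probe set. The groups did not overlap, and competent replicate 1 lay next to deficient replicate 1. The log2 change was -1.77 ± 0.59 (SE, adjusted p = 0.074 in limma), and -2.34 without competent replicate 1, where it passed (adjusted p = 0.020).

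By the average of all probe sets 9 of the 10 genes were lower with competent T cells and 8 fell, against 9.35% of all genes tested: Birc5 (-2.04 ± 0.34), Top2a (-1.72 ± 0.32), Aurkb (-1.55 ± 0.30), Cdk1 (-1.37 ± 0.30), Aspm (-1.20 ± 0.23), Nuf2 (-1.20 ± 0.33), Hmmr (-0.80 ± 0.20) and Cenpf (-0.58 ± 0.16, log2 change ± SE). Nek2 gave -0.42 ± 0.20 and Kif14 0.15 ± 0.15, and neither passed. The same 8 genes passed without competent replicate 1, with log2 changes from -2.58 ± 0.32 for Birc5 to -0.75 ± 0.17 (SE) for Cenpf, against 12.9% of all genes tested, and Kif14 then gave -0.0072 ± 0.17. Without competent replicate 3 only Birc5, Top2a, Aurkb and Aspm did.

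Aurkb had a median over its probe sets of 7.06, 5.16 and 5.19 with competent T cells, against 7.80, 8.19, 8.18, 8.06 and 7.56 with deficient T cells, and the groups did not overlap. Nuf2 had 5.55, 4.02 and 4.73 with competent T cells, against 6.16, 6.06, 6.40, 7.02 and 5.09 with deficient T cells, and here competent replicate 1 overlapped with deficient replicate 5. Aspm had 5.09, 4.24 and 3.89 with competent T cells, against 5.41, 6.31, 5.86, 5.87 and 4.59 with deficient T cells, with the same overlap. Kif14 had 5.20, 4.19 and 5.24 with competent T cells, against 4.72, 4.76, 4.84, 4.85 and 3.79 with deficient T cells, and 9 of its 24 probe sets were lower.

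The probe sets of a gene passed unevenly in this comparison. All 6 kept probe sets of Birc5 passed, as did 6 of 11 of Aurkb, 10 of 30 of Top2a, 5 of 20 of Aspm, 4 of 15 of Nuf2, 3 of 11 of Hmmr, 1 of 8 of Cdk1 and 1 of 16 of Cenpf, and none of Kif14 or Nek2. Without competent replicate 1 the count of 36 became 59, and it became 17 without competent replicate 2 and 12 without competent replicate 3. Calls over all genes tested moved too. By the brightest probe set they ranged from 197 to 565 without 1 array, against 323 with all arrays. The shares of all probe sets under these settings are not given here. Array weights left 1 and a fit of the 16.113 arrays alone 2.

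The size of the response was compared between models as a difference of changes. No member passed between MCA313 and J558L tumours at 24 h or between 16.113 and J558L tumours, by either measure, against 0% of all genes tested in both by the brightest probe set and 0.0228% and 0% by the average. Without competent replicate 1 no member passed between 16.113 and J558L tumours either, whereas 0.638% of all genes tested did by the brightest probe set and 0.547% by the average. With all arrays Nek2 had an unadjusted p under 0.05 in the first and Kif14 in the second by the brightest probe set, both as positive differences. Of all 4386 genes tested 63 were negative and 68 positive by that mark in the first. In the second 180 were negative and 95 positive. The 3 models differ in tumour, host and source of IFNγ, so these cannot be told apart.

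Other genes of mitosis were taken from a list of 140, of which 26 were on the array table and 25 were tested. Lower by the brightest probe set were 18 of 25 at 24 h and 16 at 48 h in MCA313, 19 in J558L tumours, 8 in J558L kidney and 21 in 16.113, with medians of -0.18, -0.36, -0.32, 0.07 and -0.55. Over all genes tested the medians of these comparisons lay between -0.03 and 0.01. The counts past the test were 0, 0, 1, 0 and 5, all lower. Of all genes tested 0.684%, 1.37%, 0.547%, 3.17% and 7.36% passed in these comparisons, in either direction.

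In J558L tumours Fbxo5, known as Emi1, which restrains the anaphase-promoting complex, fell by 2.57 ± 0.39 (SE, adjusted p = 0.0032 in limma), with means of 5.99 at 24 h and 8.56 at 0 h. The size is uncertain because the 24 h mean lay under the array medians. In 16.113 tumours Mis12 (-2.23 ± 0.43) and Spdl1 (-1.81 ± 0.42) of the kinetochore, Sgo2a (-2.15 ± 0.60), which protects cohesion at centromeres, Cks2 (-1.09 ± 0.25), a partner of Cdk1, and Kpna2 (-0.71 ± 0.16), an importin, fell with competent T cells. The competent means of Mis12 (5.77) and Spdl1 (5.88) lay near the array medians, so their sizes are uncertain too. Without competent replicate 1 these 5 passed again, and Fbxo5, Gas2l3, Ska2 and Spag5 also did, all lower, against 12.9% of all genes tested. In MCA313 the largest differences were those of Sgo2a (-1.70 ± 0.75), Fbxo5 (-1.18 ± 0.39) and Parpbp (-1.12 ± 0.73) at 24 h and of Sgo2a (-2.46 ± 0.75), Hjurp (-1.29 ± 0.96) and Gas2l3 (-0.90 ± 0.52) at 48 h, and none of these passed. In the kidney Hjurp (-1.44 ± 0.85), Parpbp (1.26 ± 0.65) and Ska2 (-0.87 ± 0.60) had the largest and none passed.

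By the average of all probe sets 3 of the 25 passed at 24 h in MCA313 (Parpbp, Gas2l3 and Fbxo5), 2 at 48 h (Parpbp and Ube2t), 4 in J558L tumours (Fbxo5, Ncapg2, Kif18b and Pimreg), none in the kidney and 10 in 16.113, all lower. Of all genes tested 2.8%, 3.1%, 2.12%, 5.93% and 9.35% passed in these comparisons, in either direction. Fbxo5 also passed the test of tumour against kidney response by the average (-1.58 ± 0.27, adjusted p = 0.0093 in limma), against 0.342% of all genes tested. The kinesin Kif18b, the condensin subunit Ncapg2 and Pimreg were lower past the test in both J558L and 16.113 tumours by the average. Mis12 had the largest change of the list by the average in 16.113 (-2.30 ± 0.31). The average gave 13 past the test in 16.113 without competent replicate 1, all lower, against 12.9% of all genes tested, with Mis12 at -2.75 ± 0.31.

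**Figure D5:**
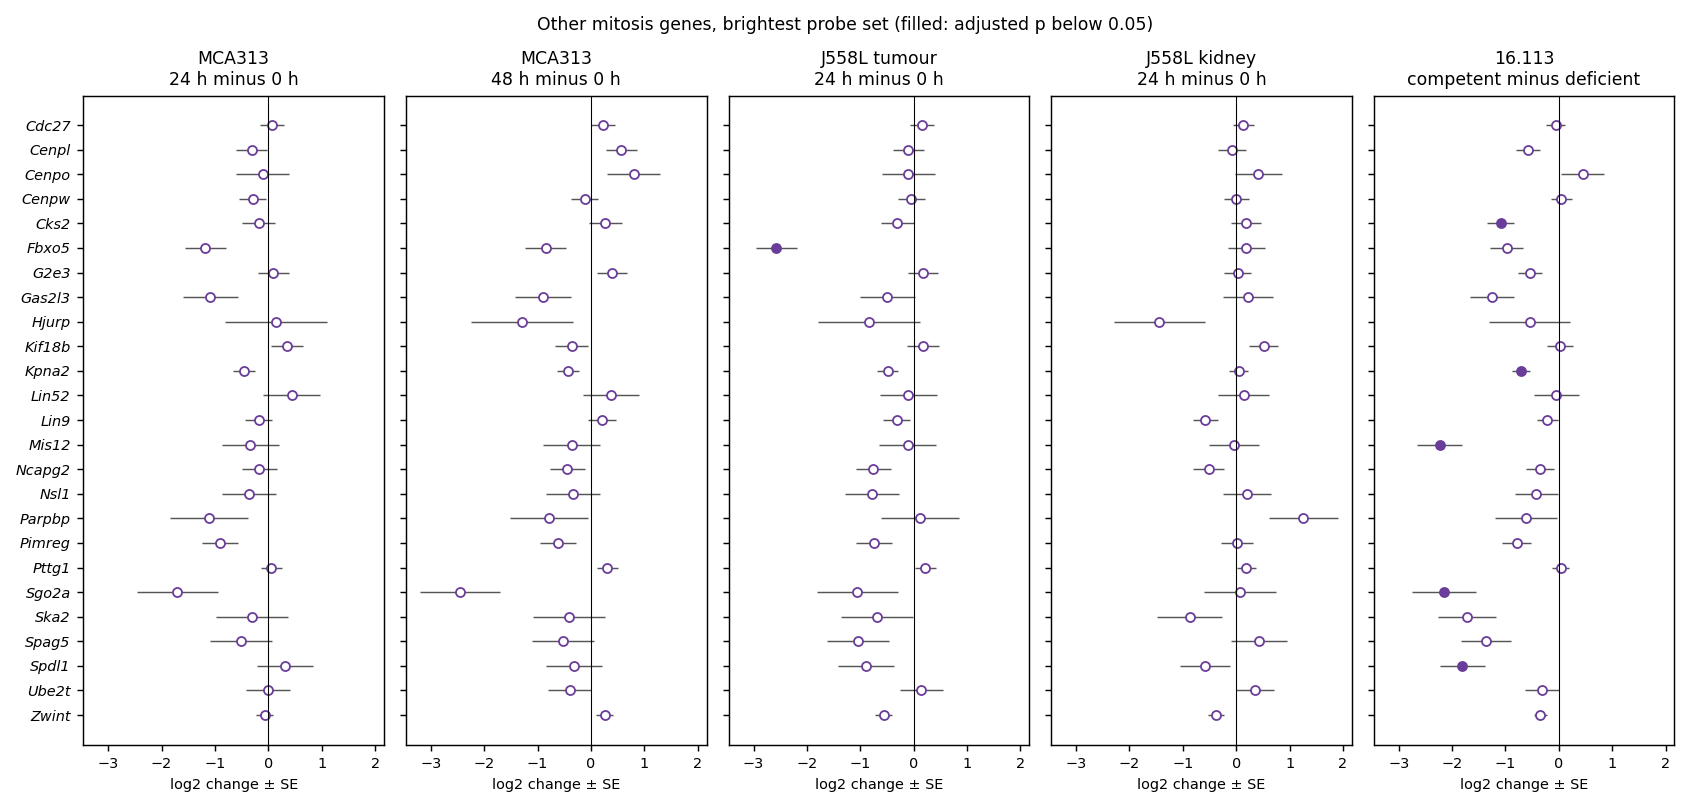
Points are fitted log2 changes with standard errors from limma for the 25 other mitosis genes by their brightest probe set, in 5 comparisons, filled where the adjusted p is below 0.05. Fbxo5 is filled in J558L tumour, Cks2, Kpna2, Mis12, Sgo2a and Spdl1 are filled in 16.113, and none in MCA313 or the kidney.

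The 10 genes moved together across arrays to unequal degrees. With gene medians over probe sets centred within each of the 4 sets, the Pearson correlation over 26 arrays ranged from 0.145 to 0.948 over the 45 pairs, with a median of 0.696. By the brightest probe sets Birc5 (0.905), Top2a (0.773), Cdk1 (0.747) and Nuf2 (0.719) followed the mean of the other 9 members most, and Kif14 (0.163) and Cenpf (-0.228) least. These values share the arrays, the sets and the group differences and are descriptions.

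Of all other genes tested, those most like the mean of the 10 members over the 26 centred arrays were Exo1 (r = 0.919), Crip1 (0.918), Ckap4 (0.894), Nme1 (0.891), Cdk4 (0.882), Prim1 (0.868), Fasn (0.865), Cdc6 (0.862), Erh (0.860) and H2bc3 (0.858). None of these is on the list of other mitosis genes, of which only 25 of 140 were tested. Exo1 is an exonuclease of DNA repair, Cdk4 a kinase of G1, Prim1 a DNA primase subunit, Cdc6 a factor of replication licensing and H2bc3 a histone gene. No role is given here for Crip1, Ckap4, Nme1, Fasn and Erh, and a theme shared by the 10 genes was not tested.

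Markers of other cell types were read beside these results. Of 11 endothelial markers on the array, Sele, E-selectin, fell at 48 h in MCA313 (-2.24 ± 0.49, log2 change ± SE), Myct1 rose in 16.113 with competent T cells (0.49 ± 0.11), and no other endothelial marker passed in the 5 comparisons. Their summed linear level was 61059 to 62622 at 24 h in MCA313 against 67829 to 70411 at 0 h, and 72877 to 75554 at 24 h in J558L tumours against 84868 to 86120 at 0 h, without overlap in either. It was also lower without overlap in the kidney, at 72489 to 78455 at 24 h against 79253 to 86441 at 0 h. In 16.113 it was 57086, 49322 and 50346 with competent T cells, against 55333 to 59442 with deficient T cells, and replicate 1 was again the competent array within the deficient range. Without that array Sele also passed in 16.113, lower with competent T cells (-1.67 ± 0.42), and Myct1 passed again.

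None of 19 leukocyte and 11 fibroblast and pericyte markers tested passed in any comparison with all arrays. Without competent replicate 1 the leukocyte genes Itgae and Evi2a (lower) and Evi2b (higher) and the collagen gene Col6a3 (lower) passed in 16.113. The leukocyte sum was 7342 to 9810 with competent T cells, against 7362 to 10938 with deficient T cells, and 11810 to 12656 at 24 h in J558L tumours, against 10338 to 11522 at 0 h. It was also higher without overlap at 24 h in MCA313 (8218 to 8633, against 7441 to 7992 at 0 h). Lcp2 was by far the brightest leukocyte marker in tumours and weighs most in these sums. In J558L tumours its means were 12.91 at 24 h and 12.64 at 0 h. The median change of the leukocyte markers was 0.04 there and 0.22 at 24 h in MCA313. The fibroblast and pericyte sum was higher without overlap at 24 h in J558L tumours (8473 to 10090, against 6595 to 7366 at 0 h) and lower without overlap in the kidney (6699 to 8123 at 24 h, against 8230 to 8769 at 0 h). The median change of the fibroblast and pericyte markers was 0.37 in J558L tumours and 0.17 in the kidney. Of 6 plasma cell markers, relevant because J558L is a plasmacytoma, Sdc1 was lower past the test in 16.113, with and without competent replicate 1, and none passed elsewhere. The plasma cell sum was lower without overlap in 16.113 (9518 to 10606 with competent T cells, against 10793 to 12562 with deficient T cells) and higher without overlap in the kidney (13140 to 14076 at 24 h, against 11669 to 12977 at 0 h). Xbp1 and Prdm1 were the brightest plasma cell markers and weigh most in this sum. The median change of the plasma cell markers was -0.11 in 16.113 and -0.06 in the kidney. The part of all these cell type markers in the differences of the mitosis genes was not tested.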

How the data were processed

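The deposited values are log2 expression, already normalized by the authors and reduced to 1 value per probe set. The submitters' processing notes list Affymetrix Expression Console and limma, without a version, and how the arrays were normalized was not given in the sources. Per the labels' protocols, about 500 pg of RNA from 5000 to 15000 sorted cells was amplified over 12 cycles, and tumours were about 1 cm across. The table held 65535 probe sets; 766 with several symbols and 10912 with none were left out, and genes without a probe set in it were not analysed here.

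In limma 3.58.1 under R 4.3.3, all 26 arrays entered 1 linear model of 9 group means, with moderated two-sided tests and Benjamini-Hochberg adjustment over all features of a comparison at 0.05. A gene was represented by its brightest probe set (highest mean over all arrays) or by the average of its probe sets, and features were kept if above the array's 50th percentile in at least 2 arrays. This left 4386 genes, all 10 members among them, and 39400 probe sets, 139 of them of members. The average is given beside the brightest probe set because calls differed. Named were all members, other mitosis genes past the test or otherwise the 3 largest changes, and the 10 genes most like the members. The members and lists were chosen with earlier results of these data known. Marker sums are of linear values of each marker's brightest probe set. Promoter windows are from RefSeq (GRCm38.p6). The fit was tested on simulated data. The number of arrays limits the precision. Alternatives were other filters, quantile normalization, a trended and robust variance prior, array weights, the arrays of a set alone, a replicate block (statmod 1.5.0) and each array left out. Same-numbered replicates did not deviate together within a set (correlations of deviations from -0.144 to 0.113), nor did same-numbered J558L tumour and kidney arrays of 1 time (-0.094 to 0.042), so replicate numbers were not taken to pair arrays. Whether tumour and kidney arrays share animals is not stated.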

Additional observations from a re-analysis of the deposited data

Results flagged for a closer look

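Single arrays that stood far from the other 4 of the IFNγ-deficient group of 16.113 were looked for in 20 sets of values, and 4 were found. Chance gives about 1 in 20 for independent sets. These sets share the same arrays and genes that moved together, so the count cannot be set against that figure. By the brightest probe set Birc5 was low in replicate 1 (8.88) and Aurkb in replicate 5 (9.25). By the median over probe sets Top2a was low in replicate 1 (7.15) and Kif14 in replicate 5 (3.79). For Birc5 and Top2a the low replicate 1 still lay above all IFNγ-competent arrays by these measures.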

How the results depend on the processing

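Of 890 recomputed changes of single members by the brightest probe set, 800 kept their direction and their side of the threshold, 25 came past it, 19 lost it and 46 changed sign. None of the 46 was past the test to begin with. The cause of these differences was not tested.

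Counts of members past the test by the brightest probe set moved as follows. With array weights they were 1 in 16.113, 2 in the kidney, 3 in J558L tumour, 2 at 48 h in MCA313 and 1 for the tumour response minus the kidney response. With the arrays of a set alone they were 0 in 16.113 and at both times in MCA313. With averaged probe sets they were 8 in 16.113, 5 in J558L tumour, and 4 and 3 at 24 h and 48 h in MCA313. Quantile normalization gave 0 at both MCA313 times. At 48 h in MCA313 no filter gave 0, and the stricter filter and the trended variance prior gave 2 each. Without 1 array they ranged from 2 to 3 in 16.113, 0 to 1 in the kidney, at 24 h in MCA313 and for 48 h minus 24 h, and 0 to 2 at 48 h in MCA313.

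Counts with averaged probe sets became 5 in 16.113, 9 in J558L tumour and 6 at 48 h in MCA313 with array weights, and 2 and 1 at 24 h and 48 h in MCA313 with the set alone. Without 1 array they ranged from 4 to 8 in 16.113, 0 to 5 in J558L tumour, 0 to 4 at 24 h and 0 to 6 at 48 h in MCA313. These settings of the averaged fit were chosen after seeing the data.

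Counts of member probe sets with array weights became 1 in 16.113, 2 in the kidney, 24 in J558L tumour, and 6 and 7 at 24 h and 48 h in MCA313. The sets alone gave 2 in 16.113 and 0 in J558L tumour and at both MCA313 times. The stricter filter gave 1 in the kidney, 1 in J558L tumour and 2 at 24 h in MCA313, and the trended prior 1 in the kidney and 2 at 24 h in MCA313. No filter gave 2 at 48 h in MCA313, and quantile normalization 0 and 1 at its 24 h and 48 h. Without 1 array the ranges were 12 to 59 in 16.113, 0 to 1 in the kidney, 0 to 2 in J558L tumour, 0 to 1 at 24 h and 0 to 9 at 48 h in MCA313.

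The replicate number as a replicate block, whose consensus correlation was -0.068 over genes, left 0 members past the test at 24 h and 0 at 48 h in MCA313 and 1 member probe set at 48 h, and gave -0.0091 for Hmmr in 16.113. The block changed no other count by over 1.5 times. A block over J558L tumour and kidney arrays of the same time and number, added after seeing the data, also left 0 members past the test for tumour minus kidney. Pairs of J558L tumour arrays with the same number had correlations of -0.144 and -0.120, and a crossed pairing was not run.

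Signs changed with averaged probe sets for Aspm (-0.10 in the kidney, -1.11 and -0.86 at 24 h and 48 h in MCA313), Aurkb (-0.82 and -1.29 at these times), Cenpf (-0.58 in 16.113, -0.76 in J558L tumour, -0.68 and -0.67 in MCA313, -1.01 for tumour minus kidney), Hmmr (-0.80 in 16.113, -0.13 in the kidney), Kif14 (-0.57 at 24 h in MCA313), Nuf2 (0.00082 in the kidney) and Top2a (-1.16 for tumour minus kidney). They changed with array weights for Aspm in the kidney (-0.32) and Top2a for tumour minus kidney (-0.086), and with quantile normalization for Nuf2 in the kidney (0.032) and that Top2a difference (-0.089).

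Without 1 array signs changed within these ranges. Aspm ranged from -0.61 to 0.40 in the kidney, -0.11 to 0.83 at 24 h in MCA313 and -0.81 to 0.21 for tumour minus kidney. Cdk1 ranged from -1.63 to 0.37 and Nuf2 from -0.24 to 0.29 in the kidney. Cenpf ranged from -0.11 to 0.15 in 16.113, -0.084 to 1.15 in J558L tumour, -0.10 to 0.31 at 48 h in MCA313 and -0.20 to 1.04 for tumour minus kidney. Hmmr ranged from -0.29 to 0.27 in 16.113, Top2a from -0.40 to 0.33 for tumour minus kidney, and Kif14 from -0.49 to 0.62 and Nek2 from -0.19 to 0.051 at 24 h in MCA313. Kif14 there was -0.00039 without replicate 3 at 0 h.

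Groups of 2 or 3 arrays limit these results, and a group with 1 array left is assumed to vary like the others. By the median over probe sets, all members but Top2a, Aurkb and Cdk1 had group means under the array medians in every IFNγ-exposed tumour group, and all 10 had in the kidney, where sizes of change are uncertain.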
